A study of Sus scrofa with 5 samples.

Results

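The cells described here were blood vessel lining cells that showed little sign of division in the cecum of newborn pigs. They were chosen from the deposited counts of unique molecular identifiers (UMIs, tags that count each captured RNA molecule once) by a fixed rule. A barcode had to hold at least 200 genes, at least 3 UMIs of PECAM1, PLVAP, VWF and CDH5 together with at least 2 of those genes found, no UMI of PROX1, MMRN1 or PTPRC, and at most 1 UMI of MKI67 and TOP2A together. The rule took 1724 of the 72701 barcodes that held at least 200 genes. PECAM1, PLVAP, VWF, CDH5, PROX1, MMRN1, PTPRC, MKI67 and TOP2A therefore chose the cells, and their levels are given only as a description.

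The study followed cecal development with single-cell RNA sequencing of Large White male piglets at birth (d0) and at 1, 7, 14 and 21 days of age (d1, d7, d14 and d21). All piglets were untreated, were born to 3 sows, were fed maternal milk only, and carried no engineered allele. Scraped cecal mucosa of 5 piglets was mixed into 1 library at each age and taken apart with EDTA and trypsin. Each age is thus 1 library of pooled animals. Age and library cannot be told apart, no test between ages was possible, and every interval below is a 95% interval of counting error alone. Only scraped mucosa was sequenced, so a share of barcodes is a share of the cells recovered.

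Blood endothelial cells form a single layer on the inner face of arteries, capillaries and veins. They are held together by VE-cadherin (CDH5) and PECAM1, they store von Willebrand factor (VWF) for clotting, and in the gut their capillary wall carries windows closed by a diaphragm of PLVAP, through which absorbed nutrients enter the blood. Lymphatic endothelial cells share many of these genes but are set apart by PROX1, the transcription factor that specifies them, and leukocytes are set apart by PTPRC (CD45).

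The d0 library kept 15218 barcodes with 83394038 counts, the d1 library 14142 with 80196009, the d7 library 10272 with 47921183, the d14 library 16177 with 91863866 and the d21 library 16892 with 69522315. Of these barcodes, 29 met the rule at d0, 1585 at d1, 7 at d7, 65 at d14 and 38 at d21. The d1 library alone gave 91.9% of all cells chosen. As shares of kept barcodes these numbers were 0.191% at d0 (exact Clopper-Pearson interval 0.128 to 0.274%), 11.2% at d1 (10.7 to 11.7%), 0.0681% at d7 (0.0274 to 0.140%), 0.402% at d14 (0.310 to 0.512%) and 0.225% at d21 (0.159 to 0.309%). The d1 interval lay far above the other 4, and the intervals of d0 and d21 overlapped. Without cells that carried a UMI of EPCAM, CD3E, COL1A1, COL3A1, RGS5 or HBB, the share was 4.58% at d1, 0.155% at d14 and 0.124% at d21, and among barcodes under 20% mitochondrially encoded counts it was 0.421% at d0. With at least 5 rule UMIs it was 0.253% at d14 and 0.148% at d21, and after thinning to 1000 UMIs 0.0127% at d7 and 0.230% at d14. The chosen cells held a median of 3223, 3636, 6979, 4814 and 2334 UMIs from d0 to d21, against 2859, 3005, 2340, 4121 and 2587 over all kept barcodes of the same libraries. Their summed counts were 104587 at d0, 7460925 at d1, 47022 at d7, 363895 at d14 and 102614 at d21, so that a level at d1 rested on many more molecules than one at any other age.

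**Figure D1:**
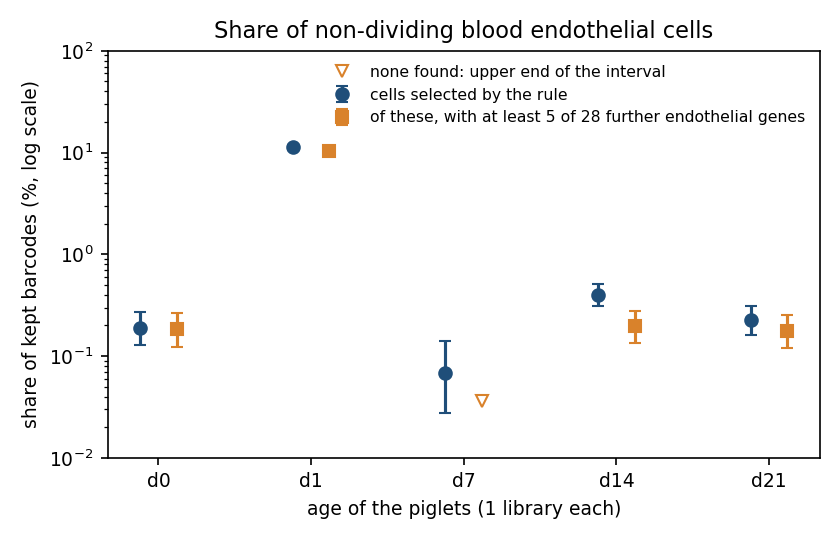
Share of kept barcodes, in percent on a log axis, that met the rule (circles) or met it and also held at least 5 of 28 further endothelial genes (squares) in each of the 5 libraries, with exact Clopper-Pearson 95% intervals. The d1 circle stands at 11.2%, and the open triangle at d7 marks the upper end of the interval where no cell held 5 of the 28 genes.

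The label was checked against 28 endothelial genes that the rule did not use, among them the receptor KDR, the transcription factors SOX17 and SOX18, the tetranectin gene CLEC3B, the surface protein ECSCR, and EGFL7, which endothelial cells secrete. The median cell carried 15 of the 28 at d0, 15 at d1, 2 at d7, 4 at d14 and 8.5 at d21. After every cell was thinned to 1000 UMIs the medians were 9, 7, 1, 1 and 6. At least 5 of the 28 were found in 28 of 29 cells at d0 (96.6%), 1458 of 1585 at d1 (92.0%), 0 of 7 at d7, 32 of 65 at d14 (49.2%) and 30 of 38 at d21 (78.9%). Some kept barcodes short of the rule's UMIs of PECAM1, PLVAP, VWF and CDH5 also held at least 5 of the 28. Their shares were 0.0659%, 2.84%, 0.206%, 3.96% and 1.16% from d0 to d21, so 5 of the 28 is not specific to the chosen cells. The data went with the label at d0, d1 and for most cells at d21, but not at d7, and at d14 for 49.2% of cells. The 7 barcodes at d7 carried no UMI of CLEC3B, SOX18 or KDR in their 47022 counts, while the monocyte lectin FCN1 stood at 15.5 and the collagen COL3A1 at 22.8 per 10000 counts. COL3A1 was found in only 2 of the 7, with 71.0% of its UMIs from 1 barcode. The 7 are referred to below only as d7 barcodes that met the rule.

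The rule genes themselves were uneven across ages. PECAM1 was found in 100%, 96.3%, 100%, 93.8% and 94.7% of the chosen cells from d0 to d21, and PLVAP in 100%, 99.6%, 85.7%, 96.9% and 92.1%. VWF was found in 82.8% at d0, 76.5% at d1, 14.3% at d7, 27.7% at d14 and 52.6% at d21. CDH5 was found in 62.1%, 68.1%, 0%, 23.1% and 47.4%. VWF and CDH5 were thus scarce where the further endothelial genes were scarce. Cells just inside the threshold, with exactly 3 rule UMIs, numbered 79 at d1 and held a median of 3 of the 28 genes, whereas 182 barcodes just outside it, with 2 rule UMIs, held a median of 1. At d14 the 13 cells just inside held a median of 1 and the 14 barcodes just outside 1.5.

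**Figure D2:**
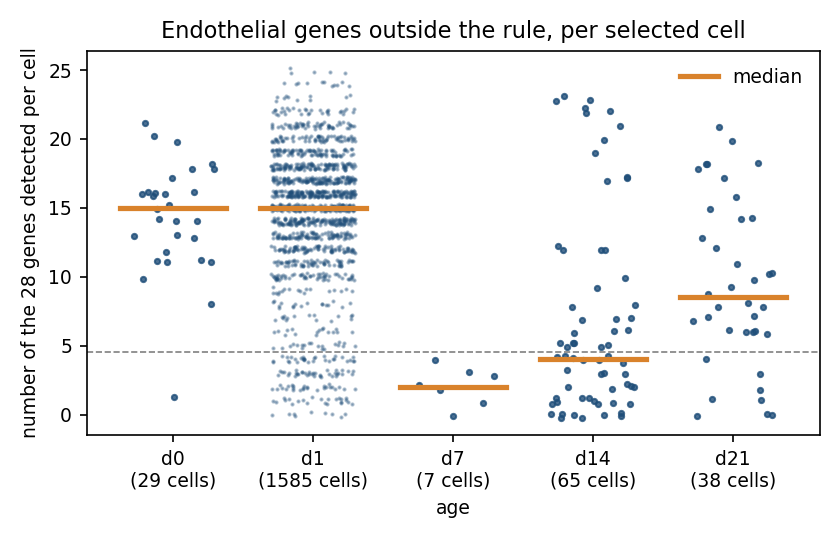
Number of the 28 further endothelial genes found in each cell that met the rule, by library; each point is a cell, the orange bar is the median and the dashed line separates 4 from 5 genes. The medians fall at 15, 15, 2, 4 and 8.5 from d0 to d21.

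The cells with at least 5 of the 28 genes are called supported cells below. This division was added after the data were seen, and it partly sets the levels of the 28 genes. Those levels are given over all cells that met the rule, and wherever one of the 28 is named in supported cells this is said. Levels are the UMIs of a gene summed over the cells per 10000 counts of the same cells.

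The genes that set the chosen cells apart from the other kept barcodes of their own libraries are a description, because the rule picked the cells. Outside the rule genes, SOX18, a transcription factor of endothelial identity on chromosome 17 (62869868 to 62871758, Sscrofa11.1), stood highest, with a median log2 ratio over the 5 libraries of 5.12. CYYR1 followed at 4.75, CLEC3B at 4.47, MADCAM1 at 4.45, FAM167B at 4.37 and the fatty acid binding protein gene FABP5 at 4.28. ADGRL4, an adhesion receptor of vessels, stood at 4.202, the phosphatase PTPRB at 4.16, SOX17 at 4.03, the matrix-bound IGFBP7 at 3.98, the lipoprotein lipase anchor GPIHBP1 at 3.899 and the alarmin IL33 at 3.85.

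CLEC3B encodes tetranectin, a plasminogen-binding lectin, and lies on chromosome 13 (28219241 to 28229113). Its level was 38.4 per 10000 at d0 (exact Poisson interval 34.8 to 42.4), 36.8 at d1 (36.3 to 37.2), 0 at d7, 2.58 at d14 (2.09 to 3.16) and 1.75 at d21 (1.04 to 2.77). The d0 and d1 intervals overlapped, and both lay above those of d14 and d21. It was found in 27 of 29, 1456 of 1585, 0 of 7, 19 of 65 and 9 of 38 cells. At 1000 UMIs per cell the shares with a UMI of CLEC3B were 79.3% at d0, 86.2% at d1, 0% at d7, 17.2% at d14 and 6.67% at d21, against 91.9% at d1 without thinning. As background, CLEC3B was found at 1000 UMIs in 1.89% of the EPCAM-positive d1 barcodes without any rule gene (median depth 8455 UMIs, against 3636 in the chosen cells) and in 3.23% of the COL3A1-positive ones.

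CD36, a fatty acid transporter of capillaries on chromosome 9 (99685748 to 99782296), had the same kind of pattern. Its level was 11.95 per 10000 at d0 (9.95 to 14.2), 8.52 at d1 (8.31 to 8.73), 0 at d7, 0.165 at d14 (0.0605 to 0.359) and 0.487 at d21 (0.158 to 1.14). It was found in 23 of 29 cells at d0 and 1291 of 1585 at d1, but in 4 of 65 at d14 and 4 of 38 at d21. FABP5, which carries fatty acids inside the cell, stood at 55.3 per 10000 at d0 (50.9 to 60.0), 67.1 at d1 (66.5 to 67.7), 0.851 at d7 (0.232 to 2.18), 10.0 at d14 (9.03 to 11.11) and 23.1 at d21 (20.2 to 26.2). CD36 was near its floor from d7 on, whereas FABP5 was lower at d14 and d21 but still found in 27 of 65 and 24 of 38 cells. BTNL9, a butyrophilin-like gene of capillaries, was at 1.63, 1.14, 0, 0.165 and 0 per 10000 from d0 to d21, and 0 at d21 allows up to 0.292 per 10000 (3 counts of the library's chosen cells).

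SOX18 did not share this order. Its level was 7.84 per 10000 at d0 (6.24 to 9.73), 6.33 at d1 (6.15 to 6.51), 0 at d7, 5.28 at d14 (4.56 to 6.08) and 9.45 at d21 (7.67 to 11.5). Its d21 value overlapped that of d0, and d14 lay below both. KDR, the main receptor for VEGFA, stood at 2.68, 2.08, 0, 0.797 and 1.66 per 10000, and FLT1, a second VEGF receptor, at 2.96, 2.05, 0.425, 0.852 and 2.44. TEK, the angiopoietin receptor, stood at 1.82, 2.16, 0, 0.714 and 1.07. PTPRB, a phosphatase that acts on TEK and VE-cadherin, stood at 2.39, 2.18, 0, 2.25 and 5.26. KDR, FLT1 and TEK were therefore lowest at d7 and next lowest at d14, where fewer of the cells carried endothelial genes, whereas PTPRB was highest at d21.

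Some genes of arteries, but not all, ran the other way. GJA4, a gap junction protein on chromosome 6 (91045430 to 91048161), was at 1.05 per 10000 at d0 (0.525 to 1.88), 0.449 at d1 (0.402 to 0.4998), 0 at d7, 4.18 at d14 (3.54 to 4.90) and 5.46 at d21 (4.12 to 7.09). GJA5, its relative on chromosome 4 (99854129 to 99871288), was at 0.0956 per 10000 at d0, 0.0335 at d1 (0.0217 to 0.0495), 0 at d7, 0.687 at d14 (0.445 to 1.01) and 2.63 at d21 (1.73 to 3.83). SEMA3G, a semaphorin of arterial endothelium, was at 0, 0.123, 0, 0.660 and 2.63 per 10000. At d21 all 3 lay above their d1 intervals, and GJA4 was found in 18 of 38 cells there against 173 of 1585 at d1. At 1000 UMIs per cell GJA4 was found in 10.3%, 4.54%, 0%, 15.5% and 36.7% of cells. Other arterial genes did not share this order: the Notch ligand DLL4 was at 0.764 per 10000 at d1, 0.302 at d14 and 0.975 at d21, and SOX17 at 3.56, 1.54 and 3.898.

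Other genes followed the same order. AQP1, a water channel, stood at 0.669 per 10000 at d0 (0.269 to 1.38), 0.422 at d1 (0.377 to 0.471), 0 at d7, 1.73 at d14 (1.33 to 2.21) and 5.26 at d21 (3.95 to 6.87). CXCL12, a chemokine, stood at 1.34, 0.474, 0.213, 1.70 and 5.36 per 10000. The transcriptional regulator ID1, a target of BMP signals, stood at 5.55 per 10000 at d0 (4.21 to 7.17), 2.49 at d1 (2.38 to 2.61), 1.06 at d7 (0.345 to 2.48), 6.98 at d14 (6.15 to 7.89) and 13.4 at d21 (11.2 to 15.8). In the other barcodes ID1 was at 5.04, 3.11, 1.06, 1.48 and 1.12 per 10000, so the d21 value was not shared by the rest of its library.

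**Figure D3:**
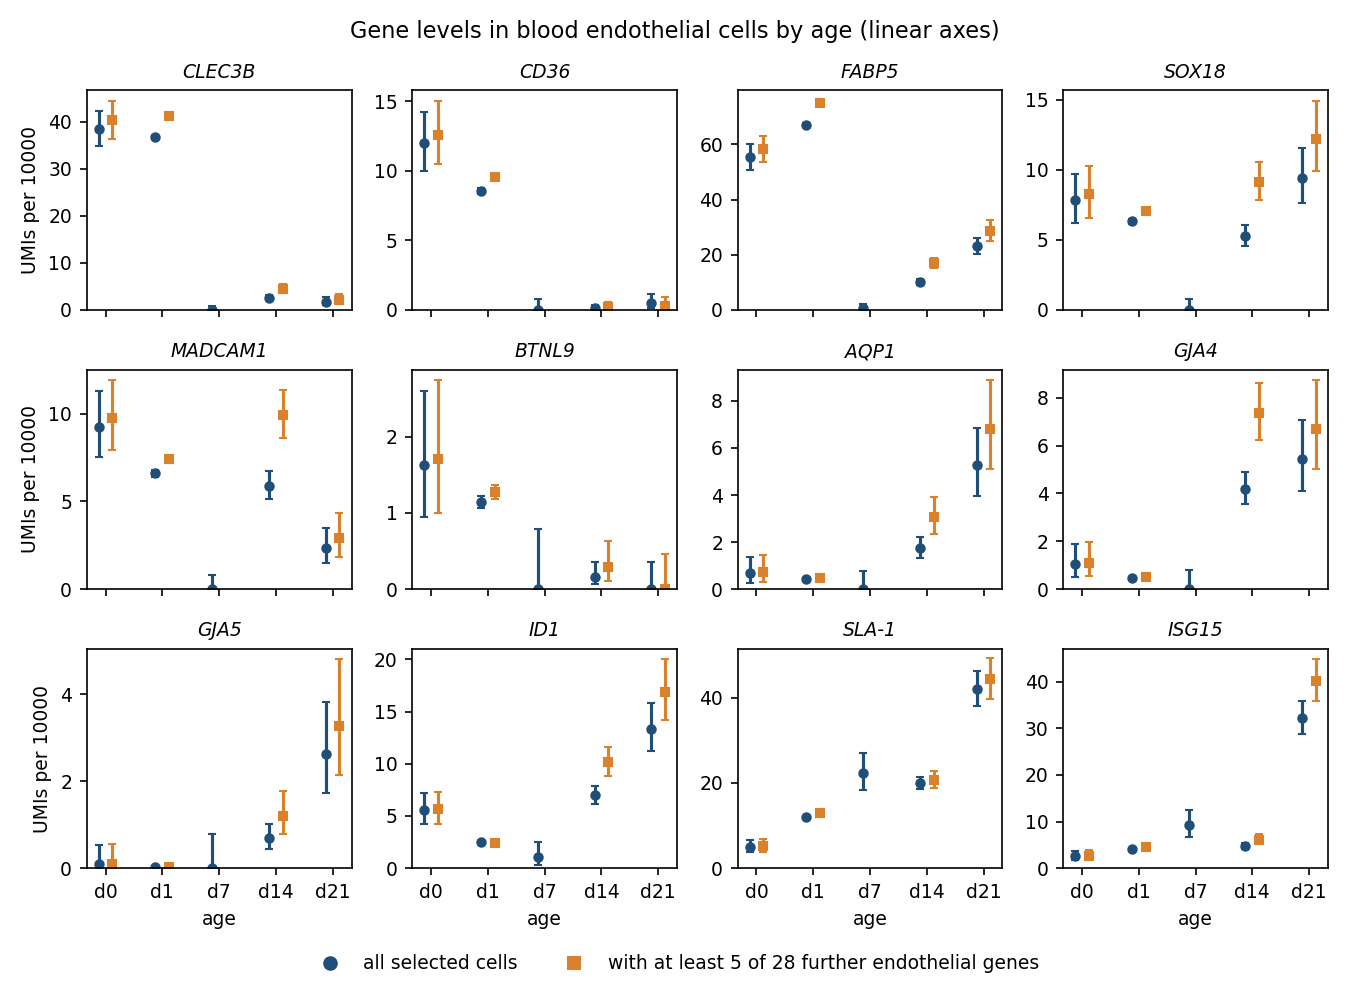
Levels of 12 genes, in UMIs per 10000 counts on linear axes, in the cells that met the rule and in the supported cells of each library, with exact Poisson 95% intervals of counting error. CLEC3B, CD36, FABP5 and BTNL9 are high at d0 and d1, whereas AQP1, GJA4, GJA5 and ID1 are highest at d14 or d21.

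Ages were then compared over all genes. A gene was counted as differing where its level (0.1 per 10000 added to both) changed at least 2-fold and the counting intervals did not overlap. Only genes at or above 0.5 per 10000 in either library were compared. The pairs first planned were consecutive ages and d21 against d1, and none of them held 50 chosen cells in both libraries. The comparisons below were therefore added or kept after the data were seen, where both libraries held at least 20, among them d14 against d1 with 65 and 1585. Those with d1 share that library, d21 against d14 shares a library with each of 2 others, and the d7 barcodes were left out.

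Between d0 and d1 few genes differed in the supported cells. Of 3604 genes compared, 119 were higher at d1 (3.3%) and 140 lower (3.88%), with a median log2 ratio of -0.11. Over all cells that met the rule, 3.69% of 3356 genes were higher and 4.29% lower. In those cells 1 of 25 compared genes of the 28-gene endothelial list was lower at d1 and none higher (median log2 ratio -0.36, against -0.08 over all genes compared). It was EMCN, the sialomucin endomucin of capillaries and veins, at 6.21 per 10000 at d0 and 2.88 at d1. In the capillary list of the supported cells, CA4, a membrane carbonic anhydrase, and FABP4, another fatty acid binding protein, were higher at d1, 2 of 9 compared. FABP4 was found in only 64 of 1458 supported d1 cells. Its absence from the 28 at d0 can therefore rest on the small number of cells there, which the counting interval does not cover.

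In the secreted signals list of the supported cells, 2 of 8 compared genes were higher at d1, CXCL2 and IL6, and 1 was lower, CXCL12. The cytokine IL6 was at 0 in the supported d0 cells and at 1.27 per 10000 in 278 d1 cells, at least 4.21-fold higher against a floor of 3 counts over the d0 cells. OAS2, an interferon-induced antiviral enzyme, was at 0 and 1.18, at least 3.92-fold higher. IRF1, a transcription factor of the interferon response, was also higher at d1. ACKR1, a chemokine-binding receptor of venules, was at 3.33 per 10000 at d0 in 4 cells and 0.665 at d1 in 115 cells (log2 ratio -2.16). AKAP12, a scaffold for protein kinase A, was at 2.12 and 0.143 per 10000 (log2 ratio -3.19). GJA4 of the arterial list, ID1 of the BMP list, CXCL12 and the receptor NOTCH4 were also lower at d1. The 28 supported cells at d0 hold 99246 counts, so a level of a few cells there can rest on few vessels. COL3A1, a fibroblast collagen, moved beside these values, from 0 at d0 to 2.39 per 10000 at d1 in the supported cells, and its part in them was not tested.

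Between d1 and d14 most compared capillary genes were lower in the supported cells, and most compared arterial, venous and Notch genes were higher. Of 3969 genes compared, 681 were higher at d14 (17.2%) and 289 lower (7.28%), with a median log2 ratio of 0.28. In the capillary list, 5 of 8 compared genes were lower and none higher (median log2 ratio -1.59), namely CA4, CD36, FABP5, BTNL9 and TMEM88, a membrane protein that restrains WNT signals. CD36 stood at 9.54 per 10000 at d1 and 0.242 at d14 in the supported cells (log2 ratio -4.82), and FABP5 at 75.1 and 16.9. Among all cells that met the rule, 16.4% of 3913 genes were higher at d14 and 8.77% lower, 983 in all. Without cells that carried a marker of another cell type 771 counted, and 338 of them were among the 983. CLEC3B was lower with and without those cells (log2 ratio -3.78 and -2.76), as was CD36 (-5.02 and -4.33). Of 24 compared genes of the 28-gene list, 11 were lower at d14 in all cells that met the rule, among them KDR, FLT1, TEK and TIE1, and AQP1 was higher.

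In the arterial list 5 of 7 compared genes were higher at d14 and none lower (median log2 ratio 1.43), namely GJA4, GJA5, SEMA3G, the Notch target HEY1 and the netrin receptor UNC5B. In the venous list 5 of 8 were higher (median 1.22), namely ACKR1, the venous transcription factor NR2F2, the adhesion molecules SELE and VCAM1, and the peptidase CPE. The Notch list had 8 of 10 higher (median 1.40), and the BMP and TGF-beta list 4 of 9 (median 0.95), namely the receptor ACVRL1, the ligand BMP4, and ID1 and ID3. In all cells that met the rule the counts were 4 higher and 2 lower of 7 for the arterial list, 3 and 1 of 7 for the venous list and 4 and 1 of 10 for the Notch list. The lower genes were DLL4, of the arterial and Notch lists, SOX17, and LRG1, a secreted glycoprotein of venules. They were 4 and none of 10 for the BMP and TGF-beta list, with the ligand BMP2 counted and ACVRL1 not.

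Markers of smooth muscle and pericytes, the contractile cells wrapped around vessels, moved with these lists. All 6 compared genes of that list were higher at d14, and its summed level was 68.3 per 10000 in the supported d14 cells. ACTA2, smooth muscle actin, was at 0.701 per 10000 at d1 and 28.6 at d14 in 9 of 32 supported cells (log2 ratio 5.16). MYH11, smooth muscle myosin, was at 0.167 and 8.36 (log2 ratio 4.98), and NOTCH3, the Notch receptor of pericytes, at 0.0814 and 2.85 (log2 ratio 4.02). The 10 genes with the greatest increase at d14, among those at least 2-fold above the other barcodes, also held RGS5, TAGLN, TPM2 and MYL9, all of contractile cells. All 7 compared fibroblast genes were higher as well. When cells with a UMI of EPCAM, CD3E, COL1A1, COL3A1, RGS5 or HBB were left out of all that met the rule, the d14 log2 ratios were 2.19 for GJA4 (2.96 with them), 2.39 for GJA5 (2.56 with them) and 1.33 for ACKR1 (1.07 with them), whereas that of ID1 was 0.94 and no longer counted (1.45 with them). The part of these cells in the rest of the Notch and venous counts was not tested.

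Between d1 and d21, 5 of 9 compared capillary genes were lower in the supported cells, and most compared arterial, BMP, antigen presentation and interferon genes were higher. Of 4415 genes compared, 713 were higher at d21 (16.1%) and 266 lower (6.02%), with a median log2 ratio of 0.37. The lower capillary genes were CA4, CD36, FABP5, BTNL9 and TMEM88, and 1, FABP4, was higher (median log2 ratio -1.39). Over all cells it was 4 of 8 lower and FABP4 higher, and CA4, found in 1 of 38 cells, no longer counted. Within the cluster that FABP4 led, described below, FABP4 was instead lower at d21, at 9.52 per 10000 at d1 and 2.83 at d21. In the supported cells CD36 was at 9.54 and 0.252 per 10000 (log2 ratio -4.77), and BTNL9 at 1.27 and 0, at least 3.36-fold lower. Without the support criterion, 18% of 3937 genes were higher and 6.5% lower.

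In the arterial list 6 of 9 compared genes were higher at d21 and none lower (median 2.06). They were GJA4, GJA5, SEMA3G, HEY1, UNC5B and the kinase BMX. Among genes at least 2-fold above the other barcodes, GJA5 had the greatest increase, from 0.0362 per 10000 in 15 of 1458 cells to 3.28 in 12 of 30 (log2 ratio 4.63). TMEM100, a BMP-dependent membrane protein of arteries, went from 0.0950 to 4.16 per 10000 (log2 ratio 4.45), SEMA3G from 0.130 to 3.41 (3.93) and CXCL12 from 0.442 to 6.94 (3.70). The Notch list had 5 of 9 higher (median 1.76), namely the ligands JAG1 and JAG2, the receptors NOTCH1 and NOTCH3, and HEY1. None of the 6 compared venous genes counted as differing (median 0.14). The BMP and TGF-beta list had 6 of 9 higher (median 1.12), namely the receptors ENG and ACVRL1, of which ENG is 1 of the 28 genes that define support and did not count over all cells, the targets ID1 and ID3, and the inhibitory SMAD6 and SMAD7.

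Over all cells that met the rule, the d21 counts were 5 higher and none lower of 7 arterial genes, 7 and none of 10 Notch genes and 5 and none of 9 BMP and TGF-beta genes. Of 5 venous genes compared there, ACKR1 was higher (log2 ratio 1.08) and none lower, with a median of -0.52. The pericyte and smooth muscle list moved here too, with 6 of 6 higher and a summed level of 17.3 per 10000 in the supported cells, and RGS5 was found in 4 and ACTA2 in 5 of 30 supported cells. Without the cells that carried a marker of another cell type, the d21 log2 ratios were 3.41 for GJA4, 4.60 for GJA5, 2.84 for HEY1, 2.83 for JAG2 and 3.07 for ID1, against 3.34, 4.35, 2.495, 3.07 and 2.38 with them. The part of pericytes in NOTCH3 was not tested.

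Between d14 and d21 fewer genes differed than from d1. Of 4746 genes compared in the supported cells, 141 were higher at d21 (2.97%) and 161 lower (3.39%), and of 4237 in all cells that met the rule 244 were higher (5.76%) and 218 lower (5.15%). Over all cells, 4 of 6 compared capillary genes were higher at d21 and none lower (median log2 ratio 1.48, against 0.06 over all genes compared), namely CA4, FABP4, FABP5 and GPIHBP1. In the supported cells these were 2 of 6, FABP4 and GPIHBP1 (median 0.79), and CA4 was not among the 6. GPIHBP1 stood at 0.989 per 10000 at d14 (0.693 to 1.37) and 3.61 at d21 (2.54 to 4.97) over all cells. The arterial list had 4 of 7 higher and none lower over all cells (GJA5, SEMA3G, HEY1 and SOX17), and 3 of 9 in the supported cells. The venous list had none higher and 3 of 7 lower (NR2F2, VCAM1 and CPE), and 2 of 8 in the supported cells. All 7 compared fibroblast genes were lower at d21 in both sets of cells. All 6 compared epithelial genes were higher at d21 over all cells, from a summed 0.577 per 10000 at d14 to 15.01. In the supported cells 2 of 4 epithelial genes were higher. The part of epithelial RNA in the capillary counts was not tested. Without cells that carried a marker of another cell type, 174 genes differed in place of 462, of which 90 were shared.

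Some genes of antigen presentation were higher at d21. In the supported cells 6 of 10 compared genes were higher than at d1 and none lower (median 1.23), namely the invariant chain CD74, the class I light chain B2M, the swine class I heavy chains SLA-1, SLA-2 and SLA-3, and the peptide transporter TAP1. At d14 the count was 4 of 10 higher and none lower (median 0.88), namely CD74, SLA-2 and the class II chains SLA-DRA and SLA-DQB1. T and NK cell markers moved with this list, from a summed 0.297 per 10000 at d1 to 14.6 at d21 in the supported cells, and both compared, CD3E and the chemokine CCL5, were higher. Without cells that carried a UMI of CD3E or of the 5 other markers named above, the d21 log2 ratio was 1.77 for SLA-1 and 1.51 for CD74, against 1.79 and 1.75 with them. Over all cells that met the rule, SLA-1 stood at 5.07 per 10000 at d0 (3.80 to 6.63), 12.1 at d1 (11.8 to 12.3), 22.3 at d7 (18.3 to 27.0), 19.95 at d14 (18.5 to 21.5) and 42.0 at d21 (38.1 to 46.2). No 2 of these intervals overlapped except those of d7 and d14. The other barcodes of the same libraries showed the same order between d0, d1 and the later ages, at 2.96, 6.004, 16.4, 17.3 and 19.4 per 10000. SLA-1, SLA-2 and SLA-3 are near-identical copies, so reads may be split between them and each single level is uncertain.

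Interferon-induced genes were also higher at d21, 7 of 11 compared against 1 lower in the supported cells (median 1.78). ISG15, a ubiquitin-like protein on chromosome 6 (63363201 to 63364211), stood at 2.58 per 10000 at d0 (1.70 to 3.76), 4.21 at d1 (4.07 to 4.36), 9.36 at d7 (6.80 to 12.6), 4.73 at d14 (4.05 to 5.49) and 32.2 at d21 (28.8 to 35.8) over all cells that met the rule. In the other barcodes it was at 0.768, 1.16, 8.35, 6.62 and 10.1 per 10000. RSAD2, the antiviral enzyme viperin, was at 0, 0.206, 0, 0.687 and 4.78 per 10000, and at 0.0244, 0.0407, 0.463, 0.454 and 0.609 in the other barcodes. Both genes were thus highest at d21 in the chosen cells and in the other barcodes alike. At d14 the RSAD2 ratio to d1 changed direction when cells with a marker of another cell type were left out. IRF1 was the gene that was lower. Of the immediate early and stress genes, 6 of 13 were higher at d21 and 1 lower in the supported cells, whereas 2 were higher and 7 lower at d14. Over all cells that met the rule, 4 were higher and 2 lower at d21, and none were higher and 7 lower at d14. The heat shock gene HSPB1 stood at 8.13, 5.64, 5.74, 8.44 and 24.4 per 10000 from d0 to d21, and these genes also respond to tissue handling, whose part was not tested.

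The counts of other lists follow. In the VEGF list, 2 of 10 compared genes were higher at d14, the ligands VEGFC and PGF, and 2 lower, the feedback genes RCAN1 and SPRY1, and at d21 VEGFC was higher and SPRY1 lower of 11. KDR and FLT1 of this list define support, and over all cells that met the rule 1 of 9 was higher at d14 and 4 lower, namely KDR, FLT1, NRP1 and RCAN1. The tip and sprouting list had 5 of 6 higher at d14 (ANGPT2, PGF, INSR, NID2 and MCAM, the last 2 also made by pericytes) and 1 lower, but only NID2 of 5 higher at d21. Over all cells that met the rule, 3 of 6 were higher at d14 (PGF, NID2 and MCAM) and none lower. At d21 NID2 was higher and ADM lower of 4 in those cells. In the hypoxia and glycolysis list 1 of 8 was higher and 1 lower at d14, and 1 of 9 was higher at d21. Of 7 compared leukocyte adhesion genes, ICAM1 was higher and MADCAM1 lower at d21. MADCAM1, which binds gut-homing lymphocytes and lies on chromosome 2 (77784610 to 77789036), stood at 9.27 per 10000 at d0 (7.52 to 11.3), 6.597 at d1 (6.41 to 6.78), 0 at d7, 5.91 at d14 (5.14 to 6.75) and 2.34 at d21 (1.499 to 3.48), but in only 14 of 65 cells at d14 and 3 of 38 at d21. At d14 VCAM1 and SELE of that list were higher and none lower of 7 in the supported cells (median log2 ratio 0.11). Over all cells that met the rule, VCAM1 was higher and CD34 lower of 7 at d14 (median -0.46). ICAM1 no longer counted at d21 in those cells. Of 13 basement membrane and matrix genes, 4 were higher and none lower at d14, namely COL18A1, NID2 and the laminin chains LAMA4 and LAMC1, whereas 2 were higher and 4 lower at d21. COL18A1, a vessel basement membrane collagen, stood at 1.91, 2.44, 11.06, 12.2 and 8.09 per 10000, whereas COL4A1 stood at 27.1, 20.5, 15.5, 22.7 and 16.3. None of 6 compared junction genes counted as differing at d14, and 1 of 6 was lower at d21, the gap junction gene GJA1. Over all cells that met the rule, GJA1 was higher and the protocadherin PCDH12 lower of 6 at d14. KLF2, a transcription factor induced by flow, stood at 6.02, 11.8, 11.9, 7.47 and 16.6 per 10000 with no order by age.

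Counts of other cell types within the chosen cells differed between libraries, and barcodes that hold 2 cells were not removed. Summed levels of the epithelial list were 22.9 per 10000 at d0, 24.7 at d1, 1.49 at d7, 0.577 at d14 and 15.01 at d21, against 94.5, 82.5, 77.0, 12.1 and 18.1 in the other barcodes. At 1000 UMIs EPCAM, the epithelial adhesion molecule, was found in 17.1% of the chosen d1 cells, in 16.3% of COL3A1-positive and in 19.1% of PTPRC-positive d1 barcodes without rule genes. The exact intervals of these shares overlapped (15.2 to 19.04%, 14.1 to 18.8% and 15.4 to 23.1%), but 448 of the 1585 held at least 3 epithelial markers, and EPCAM was found in all 80 cells of 1 cluster described below. Fibroblast markers summed to 0.287, 8.07, 45.3, 82.5 and 8.97 per 10000, with COL3A1 as their most abundant gene except at d0, where POSTN led and COL3A1 was at 0. B and plasma cell markers summed to 64.3 at d14, where JCHAIN, the immunoglobulin joining chain, stood at 61.1 in 16 cells, with 77.3% of its UMIs from 1 cell. Myeloid markers summed to 0, 0.775, 27.6, 9.78 and 4.29, and T and NK cell markers to 0.191, 0.335, 4.25, 2.61 and 13.5. At least 1 UMI of EPCAM, CD3E, COL1A1, COL3A1, RGS5 or HBB was found in 8 of 29, 937 of 1585, 4 of 7, 40 of 65 and 17 of 38 chosen cells.

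To see how the cells varied among themselves, all 1724 were clustered together, which gave 10 clusters. The clusters are named by their leading genes, which are not results, because the same genes made them. The cluster with the most cells held 599, of which 581 came from d1 and 11 from d0. It was led by ACKR1, IL6, the eosinophil chemokine CCL24, SELP, the P-selectin of venules, and MADCAM1. These were found in 97, 189, 446, 311 and 538 of the 599. A cluster of 296 cells, 289 from d1 and 7 from d0, was led by ESM1, a product of sprouting tip cells, with KCNE3, ACKR3 and the plasminogen activator PLAT. ESM1 was found in 52, KCNE3 in 80, ACKR3 in 148 and PLAT in 266 of the 296. A cluster of 163 cells, 161 of them from d1, was led by PRND with BTNL9 and GPIHBP1. CLEC3B stood at 54.9, 57.3 and 40.3 per 10000 in these 3 clusters, and CD36 at 11.2, 14.2 and 7.45.

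The fifth cluster held 134 cells and was led by FABP4, SPOCK2, GJA4, AQP1, GJA5, SEMA3G and CXCL12. GJA4, GJA5 and SEMA3G are of the arterial list, but FABP4 is of the capillary list, and the capillary gene GPIHBP1 was higher here than in any other cluster (13.4 per 10000, in 86.6% of cells), with BTNL9 at 3.34. GJA4 was found in 67.9% of its cells, SEMA3G in 31.3%, FABP4 in 26.9% and GJA5 in 19.4%. Because it held genes of both lists, the cluster is called the GJA4/FABP4 cluster and given no vessel type. It took 3 of 29 cells at d0, 102 of 1585 at d1 (6.44%), 7 of 65 at d14 and 22 of 38 at d21 (57.9%, exact Clopper-Pearson interval 40.8 to 73.7%). Its cells at d1 and d21 can be set side by side, with a median of 2907 and 2117.5 UMIs per cell. CLEC3B stood at 17.9 per 10000 in the 102 d1 cells of this cluster (16.5 to 19.4) and at 1.32 in the 22 d21 cells (0.530 to 2.72). CD36 stood at 12.3 (11.13 to 13.6) and 0, where 3 counts would give 0.565, at least 21.8-fold lower. FABP5 stood at 93.0 (89.7 to 96.4) and 29.4 (24.965 to 34.4). CLEC3B, CD36 and FABP5 were thus also lower at d21 within this cluster. They were not kept out of the clustering, and libraries were not aligned in it. Their values within the cluster are therefore a description, and a change in the mix of cells was not tested. FABP4, which led this cluster, was lower at d21 within it, against its direction over all cells that met the rule. It stood at 9.52 (8.48 to 10.66) in the d1 cells and 2.83 (1.58 to 4.66) in the d21 cells. FABP4 was found in 29 of the 102 d1 cells and 4 of the 22 d21 cells. GPIHBP1 stood at 15.03 (13.7 to 16.4) and 6.595 (4.59 to 9.17).

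GJA4, GJA5 and AQP1 helped to make the cluster, so their values within it are a description. GJA4 stood at 5.17 per 10000 in its d1 cells (4.41 to 6.02) and 8.29 in its d21 cells (6.02 to 11.13), and GJA5 at 0.662 (0.410 to 1.01) and 4.52 (2.90 to 6.73). AQP1 stood at 3.37 (2.76 to 4.08) and 8.86 (6.51 to 11.8), and SOX18 at 13.4 (12.2 to 14.8) and 17.0 (13.6 to 20.8), with overlapping intervals. ISG15 stood at 13.2 (12.002 to 14.6) and 45.6 (40.0 to 51.7), and SLA-1 at 23.2 (21.6 to 24.9) and 51.3 (45.3 to 57.7). The 7 d14 cells of the cluster held 17726 counts, with CLEC3B at 1.13 per 10000 (0.137 to 4.08) and GJA4 at 18.1 (12.3 to 25.5).

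The other clusters were led by genes of other cells or of division. A cluster of 171 cells, 167 from d1, was led by SST, CLCA1, TFF3 and MUC2, genes of hormone and mucus cells. SST was found in 5, MUC2 in 23 and CLCA1 in 28 of the 171, and 86.6% of the cluster was supported. One of 80 cells with a median of 14320 UMIs was led by the keratins KRT19, KRT20 and KRT8, with EPCAM at 16.5 per 10000, and 73.8% of it was supported. A cluster of 128 cells, 105 from d1 and 22 from d14, was led by CXCL14, ADAMDEC1, PDGFRA and COL3A1, and 43.8% of it was supported. A cluster of 58 cells, 23 from d14, 18 from d1, 11 from d21 and 6 from d7, was led by JCHAIN, TYROBP, C1QA and C1QB, genes of plasma cells and macrophages, and 43.1% was supported. JCHAIN was found in 12, C1QA in 17, C1QB in 21 and TYROBP in 39 of the 58. A cluster of 45 cells was led by RGS5, ACTA2, NOTCH3 and MYH11, and it held GJA4 at 5.75 per 10000 and GJA5 at 0.750, against 6.29 and 1.26 in the GJA4/FABP4 cluster. The last held 50 cells, all from d1, and was led by PCLAF, TK1, TPX2, BIRC5 and UBE2C, genes of DNA replication and mitosis. The rule admits 1 UMI of MKI67 or TOP2A, which 66 d1 cells carried, so the chosen cells were not free of dividing ones.

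**Figure D4:**
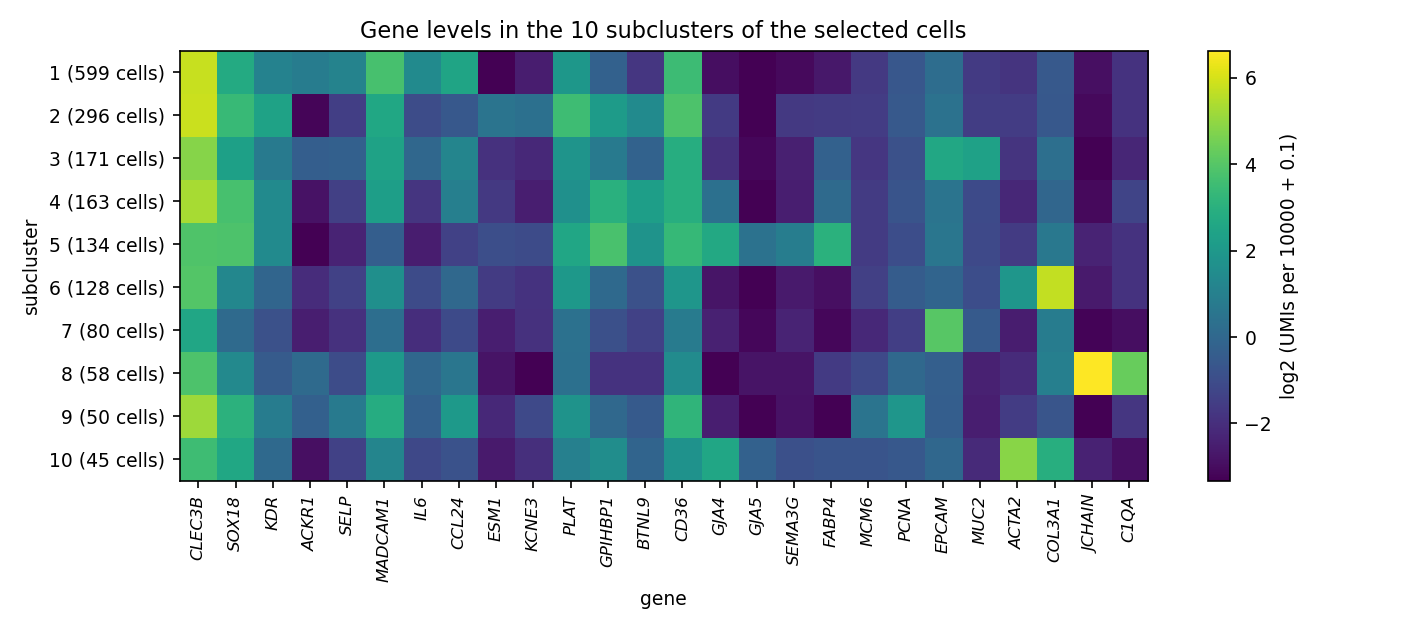
Levels of 26 genes (log2 of UMIs per 10000 counts plus 0.1, colour) in the 10 clusters of the 1724 cells. GJA4, GJA5 and SEMA3G stand out in cluster 5, COL3A1 in cluster 6, C1QA and JCHAIN in cluster 8, and ACTA2 in cluster 10, where GJA4 is also high, whereas CLEC3B is highest in clusters 1 and 2.

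At d1 the cells could be set beside their nearest relatives. These were 109 barcodes that met the rule except for 2 or more UMIs of MKI67 and TOP2A, here called dividing, and 249 that met it except for a UMI of PROX1 or MMRN1. No other library held 50 of either class (1 and 20 at d0, 0 and 8 at d7, 2 and 9 at d14, 0 and 23 at d21), so the comparison rests on 1 library and was not tested. Dividing cells held a median of 7240 UMIs and PROX1/MMRN1-positive cells 4045, against 3636.

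Of 3355 genes compared, 219 were higher in the dividing cells (6.53%) and 17 lower (0.507%). All 13 compared cell cycle genes outside the rule were higher (median log2 ratio 2.97), with HMGB2 at 1.45 per 10000 in the non-dividing and 17.2 in the dividing cells, and CENPF, a centromere protein, at 0.157 and 6.46. Their direction was set by the rule, which used MKI67 and TOP2A. Of 23 compared endothelial genes outside the rule, 1 counted as lower in the dividing cells, ECSCR, and none as higher. ECSCR stood at 2.81 and 1.22 per 10000, and GPIHBP1 of the capillary list, which also counted, at 2.49 and 0.719. BTNL9 stood at 1.14 and 0.524, MADCAM1 at 6.597 and 3.65 and CLEC3B at 36.8 and 21.2, and these 3 did not count. BTNL9 fell short of 2-fold once 0.1 was added to both levels, and MADCAM1 and CLEC3B did so without it. SOX18 differed little, at 6.33 and 5.46. Of 8 compared capillary genes 2 counted as lower, FABP4 and GPIHBP1, and none as higher.

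Of 3210 genes compared, 80 were higher in the PROX1/MMRN1-positive cells (2.49%) and 9 lower (0.28%). Lymphatic genes are given by their values alone, because the class was chosen by PROX1 and MMRN1. The hyaluronan receptor LYVE1 stood at 0.178 per 10000 in the chosen cells and 9.24 in the PROX1/MMRN1-positive ones, the chemokine CCL21 at 0.00134 and 1.10, PDPN at 0.0362 and 1.44 and the VEGFC receptor FLT4 at 0.143 and 1.33. GJA4 was also higher there, at 0.449 and 1.47. Blood endothelial genes were not absent from these cells: CLEC3B stood at 36.8 and 30.6 per 10000, CD36 at 8.52 and 5.41 and FABP5 at 67.1 and 53.8. This too is a description, because these cells also had to meet the rule for PECAM1, PLVAP, VWF and CDH5. A UMI of either PROX1 or MMRN1 sufficed, and PROX1 was found in 114 of the 249. Of 8 compared capillary genes, 3 counted as lower and none as higher.

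**Figure D5:**
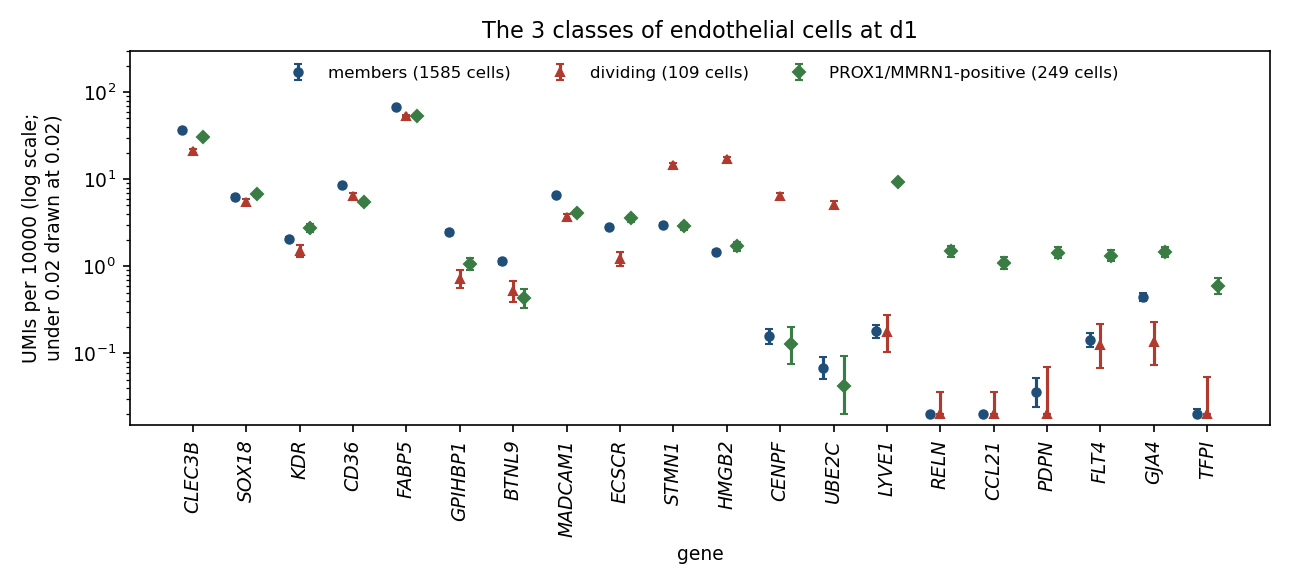
Levels of 20 genes at d1, in UMIs per 10000 counts on a log axis, in the 1585 chosen cells, the 109 dividing cells and the 249 PROX1/MMRN1-positive cells, with exact Poisson 95% intervals; levels under 0.02 are drawn at 0.02. CENPF, UBE2C and HMGB2 are high in the dividing class, LYVE1, CCL21 and RELN in the PROX1/MMRN1-positive class, and CLEC3B and FABP5 are high in all 3.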

How the data were processed

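The deposited files hold raw UMI counts per gene and barcode, 1 matrix per library of 5 pooled piglets. The authors made the counts with Cell Ranger 3.1.0 on Sscrofa11.1. The matrices hold 10824 to 16975 barcodes per library, more than the cells the study kept, whose choice was not used here. No other filter was applied here than 200 genes per barcode, which kept 72701 barcodes. Levels are summed counts per 10000, with exact Poisson intervals. Shares have exact Clopper-Pearson intervals. Clustering used scanpy 1.11.5 and intervals SciPy 1.17.1, after checks on simulated data. The cells and the gene lists were chosen with earlier results of these data known. The text names the genes of those lists, the leading genes of the cells, and, among genes at least 2-fold above the other barcodes, the 10 with the greatest change in each direction. Doublets were not called or removed. Between 37 and 79 barcodes were shared by a pair of libraries (0.360 to 0.516% of the smaller), and 1 barcode was a chosen cell in both libraries of a pair. The kit version differs between the sources and is not given here. Alternatives are given in the closing section. PDGFB, GLYCAM1 and 3 other listed genes were not in the matrices under those names. Coordinates come from the gene table of the same build.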

Additional observations from a re-analysis of the deposited data

Results flagged for a closer look

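Barcodes that met the rule except for a UMI of PTPRC, the leukocyte marker CD45, entered the comparisons above only among the other kept barcodes and were not described. At d14 they made up 2.32% of kept barcodes (375 cells, exact Clopper-Pearson interval 2.09 to 2.56%), more than the 0.402% that met the rule and above the 0.0185% that a count of 0 allows. They numbered 3 at d0, 110 at d1, 42 at d7 and 78 at d21, or 0.0197, 0.778, 0.409 and 0.462% of kept barcodes. Of the 375, PLVAP was found in 375 and PECAM1, which leukocytes also carry, in 364, but VWF in 5 and CDH5 in 19. At least 5 of the 28 further endothelial genes were found in 35 of the 375 (9.33%), against 66 of the 110 at d1 (60.0%). CD74, the class II invariant chain, stood at 137 per 10000 counts in 374 of the 375, and C1QA, a complement gene of macrophages, at 16.5, while CLEC3B was found in 7.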

How the results depend on the processing

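No paired analysis was possible because each age is 1 library. No setting left out a replicate for the same reason. Depth limits the values at d0, d7 and d21 most.

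The share of barcodes at d1 was 10.3% with at least 5 UMIs of the rule genes, 12.6% with at least 500 genes, 13.7% under 20% mitochondrially encoded counts, 11.9% after thinning to 1000 UMIs, 4.58% without cells carrying a marker of another cell type, and 10.3% with at least 5 of the 28 genes. At d0 it was 0.421% under 20% mitochondrially encoded counts. At d7 it was 0.0127% after thinning and 0% with at least 5 of the 28 genes. At d14 it was 0.253% with at least 5 rule UMIs, 0.587% with PTPRC of 1 or less, 0.230% after thinning, 0.155% without cells carrying a marker of another type, and 0.198% with at least 5 of the 28 genes. At d21 it was 0.148% with at least 5 rule UMIs, 0.326% with PTPRC of 1 or less, and 0.124% without cells carrying a marker of another type. In each of these settings d1 stayed highest.

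Over all cells that met the rule, 268, 983, 964 and 462 genes differed in d1 against d0, d14 against d1, d21 against d1 and d21 against d14. A 4-fold threshold left 56, 398, 314 and 226. For d21 against d14 the count was 302 with at least 5 and 208 with at least 8 of the 28 genes, and 174 without cells carrying a marker of another type. With no filter on low levels d14 against d1 gave 1886. Without cells carrying a marker of another type d14 against d1 gave 771, of which 338 were among the 983. In the PROX1/MMRN1-positive cells 89 genes differed, and 173 by the mean over cells. The other settings stayed within 1.5-fold of these counts. Of 406 other values of the 58 gene ratios past 2-fold, 36 were no longer past it, 21 of them with 1 per 10000 added and 8 without cells carrying a marker of another type. Of 60 other values of the shares of cells at 1000 UMIs, 22 left the counting interval, 9 of them at 500 UMIs. GJA4 at d21 was 10.5% at 500 UMIs and 47.4% without thinning. One direction reversed: RSAD2 at d14 against d1 was -0.55 (log2) without cells carrying a marker of another type, and the cause was not tested.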
